A study of Sus scrofa with 6 samples.

Results

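Collagens, laminins, integrins and the proteases that cut the extracellular matrix were followed in the longissimus dorsi, a postural muscle along the spine, of 2 pig breeds. Genes were taken by the form of their symbol: COL, LAMA, LAMB, LAMC, MMP or TIMP followed by a digit, or a symbol that begins with ITGA, ITGB or ADAMTS. In the deposited table of 17627 genes, 98 had such a symbol: 30 collagens, 8 laminin chains, 21 integrin chains, 15 matrix metalloproteinases (MMPs), 1 tissue inhibitor of them (TIMP1), 20 ADAMTS genes and 3 genes that carry an integrin's name without encoding an integrin. A symbol was at hand for 58.9% of the table's identifiers. Of the muscle genes sought by name, COL1A1, COL4A1, COL18A1, LAMA2, LAMA5, ITGA7, ITGB5, TIMP2, TIMP3 and TIMP4 were not analysed here.

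The 6 libraries came from Wannanhua pigs, a breed native to China (3 libraries), and from the commercial Yorkshire breed (3 libraries), and every one is labelled as 5 months old. Neither breed carries a treatment or transgene in the labels, and the design text calls the animals piglets. Whether the libraries of a breed are separate animals is not stated, so p-values measure the spread between libraries, which may be technical. The labels name neither sex nor feeding. The series asks which genes differ between the muscles of these breeds.

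Muscle fibres lie in a basement membrane of type IV collagen and laminin, which type VI collagen joins to a looser fabric of type I and III collagen made mainly by fibroblasts. Integrins, pairs of an alpha and a beta chain, tie the cell to this matrix, and in muscle they anchor the contractile apparatus to laminin at the costameres and the tendon end. MMPs and ADAMTS proteases trim or process the matrix, and TIMPs block the MMPs.

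Levels are FPKM, fragments mapped to a gene per unit of its transcript length and of library depth, so genes can be set side by side. Scaled counts summed to between 16373268 and 19251335 per library, and between 10726 and 11979 genes reached 1 FPKM. The libraries were uneven within Yorkshire. Yorkshire 1 was the lowest of the 6 libraries for 36.3% of all tested genes, and Yorkshire 2 and 3 for 11.8% and 14.3%. For the labelled tissue, 6 of 12 muscle-fibre markers sought were in the named rows, and they summed to between 13327 and 22926 FPKM per library, with none at 0. The markers differed in direction. ACTN2, DES, MYOT and NEB were higher in every Wannanhua library, PYGM was higher in every Yorkshire library, and TNNT1 overlapped. ACTN2 averaged 2231 FPKM in Wannanhua and 528 in Yorkshire, and PYGM averaged 2487 and 7010.

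None of the 47 tested collagen, laminin, integrin, MMP, TIMP and ADAMTS genes passed the test between breeds. The smallest p-values among them belonged to the integrin chains ITGB6 and ITGB8 and the ADAMTS-like protein ADAMTSL4, all with higher means in Wannanhua, and to the integrin chain ITGAE, with a higher mean in Yorkshire. A gene was tested at 1 FPKM or more in at least 3 libraries, and passed at an adjusted p under 0.05 in limma, a linear model with pooled spread, over all 11791 genes tested. The 1 gene of the 98 that passed was ITGB1BP2, which encodes melusin, a muscle chaperone-like protein that binds the tail of an integrin and is not an integrin itself. That is 1 of 50 tested, or 2.00%, beside 3.05% of all tested genes (1.76% higher and 1.29% lower in Wannanhua). At an unadjusted p under 0.05 stood 12 of the 47 (25.5%), beside 22.1% of all tested genes. In 9 of the 47 (19.1%) every library of one breed lay above every library of the other, beside 29.9% of all tested genes, with 5 higher and 4 lower in Wannanhua (background 20.3% and 9.63%). Negative values were more frequent, in 29 of the 50 beside 37.4% of all tested genes, and 11 of those 29 were collagens. The shares that passed or did not overlap were near or below the background. A log2 difference here is the Wannanhua mean less the Yorkshire mean of log2(FPKM + 1), where the added 1 shrinks the values of low genes. Over all tested genes its median was 0.12, and 0.00 after quantile normalization.

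The other 48 genes were too low to test: 35 never reached 1 FPKM in any library, and 13 reached it in too few. ITGB4 was the tested gene that reached 1 FPKM in Wannanhua alone, so its entry into the test depended on the breed in which it was high.

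**Figure D1:**
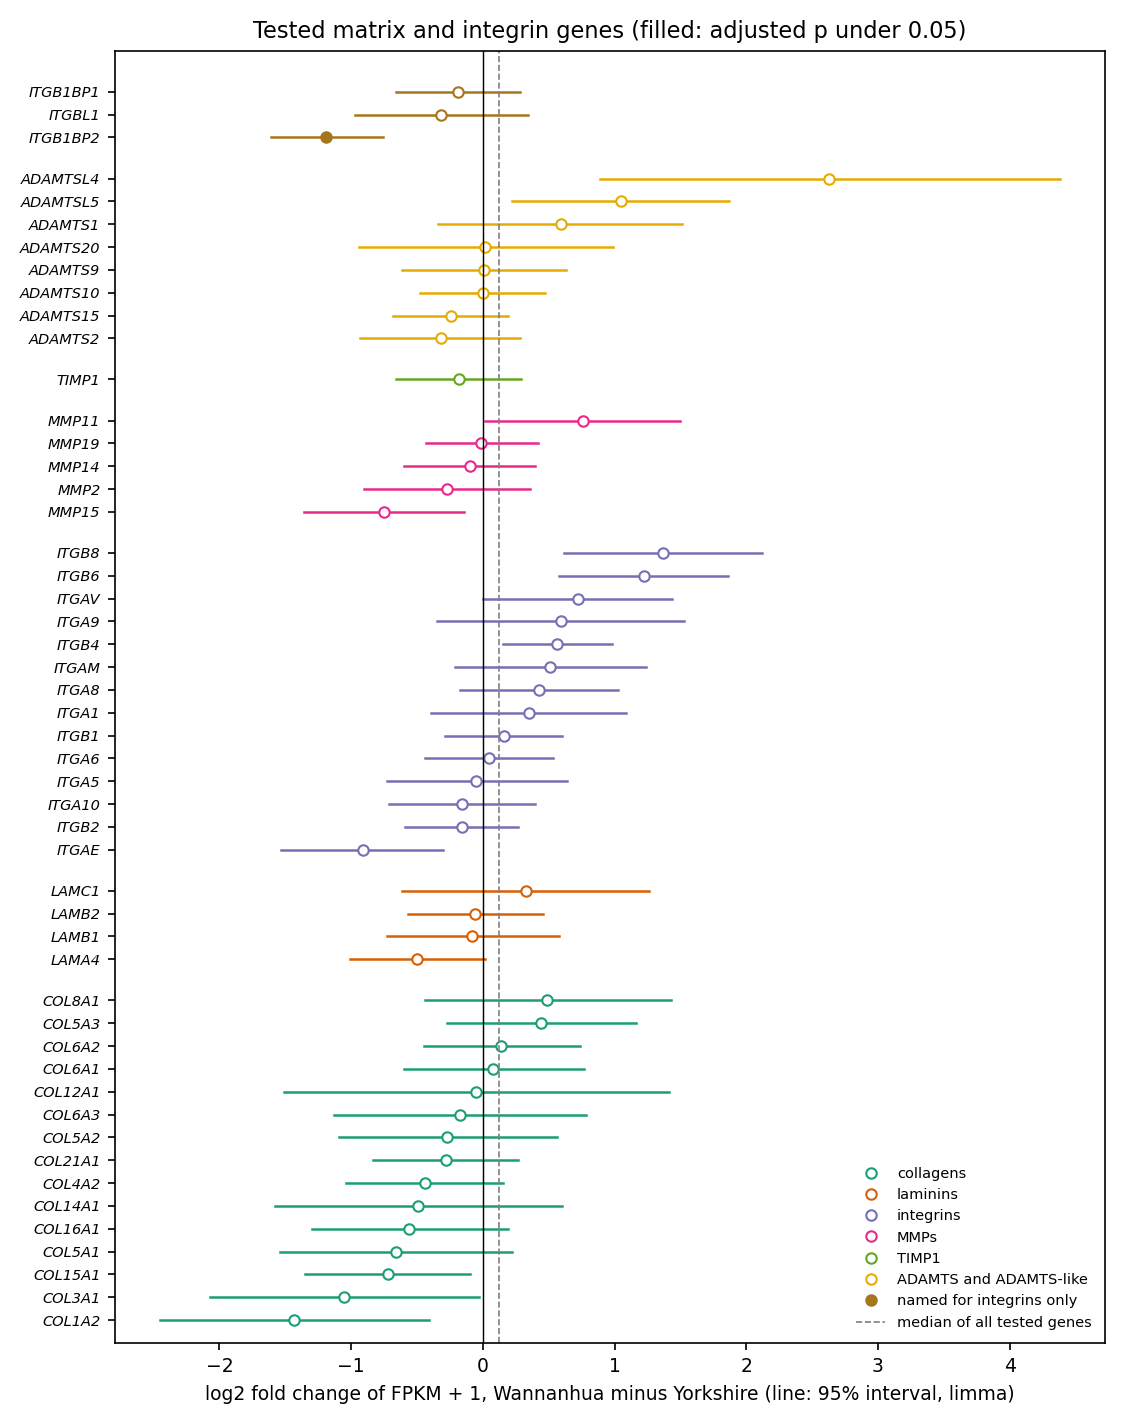
Log2 difference of FPKM + 1 (x axis, Wannanhua minus Yorkshire) of the 50 tested genes by family, with 95% intervals from limma; the filled point passed the threshold and the dashed line is the median of all tested genes, 0.12. ITGB1BP2 at -1.19 is the filled point, ADAMTSL4 at 2.63 is the farthest to the right, and COL1A2 at -1.43 is the farthest to the left.

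Fibrillar collagens, which form the tensile fibres, included the most abundant of the 98 genes by mean over the 6 libraries, COL3A1. COL3A1 (ENSSSCG00000016034), the chain of type III collagen, stood at 103, 86.6 and 79.1 FPKM in Wannanhua 1, 2 and 3, and at 88.5, 319 and 226 FPKM in Yorkshire 1, 2 and 3. Yorkshire 1 lay among the Wannanhua libraries, while Yorkshire 2 and 3 lay far above them. The breed means were 89.5 ± 12.1 and 211 ± 116 FPKM (SD, n = 3), and the log2 difference was -1.05 ± 0.44 (SE; adjusted p in limma = 0.214). COL1A2 (ENSSSCG00000015326), the second chain of type I collagen, stood at 29.5, 20.3 and 20.3 FPKM in Wannanhua and 32.3, 119 and 67.4 FPKM in Yorkshire. The breeds did not overlap, but the gap between Wannanhua 1 and Yorkshire 1 was small. The means were 23.4 ± 5.29 and 72.8 ± 43.5 FPKM, 3.11-fold higher in Yorkshire, with a log2 difference of -1.43 ± 0.44 (SE; adjusted p in limma = 0.119). Without Yorkshire 1, the Yorkshire library nearest to Wannanhua, both genes passed (adjusted p in limma = 0.0411 for COL3A1 and 0.0461 for COL1A2), with log2 differences of -1.58 and -1.91. With any other library left out neither passed (adjusted p in limma from 0.333 to 0.415 for COL3A1 and from 0.194 to 0.298 for COL1A2). Without Yorkshire 2 the log2 differences were -0.66 and -0.99. In whole tissue, fewer cells of a type and less RNA per cell cannot be told apart.

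Type V collagen starts and limits the fibres of type I. Its chains did not run in parallel. COL5A1 stood at 4.37, 5.14 and 3.83 FPKM in Wannanhua and at 3.65, 12.6 and 8.95 in Yorkshire, with a log2 difference of -0.66 (95% interval -1.54 to 0.22; adjusted p in limma = 0.346). COL5A2, which lies next to COL3A1 in the RefSeq gene order of assembly Sscrofa11.1, stood at 8.34 to 10.5 FPKM in Wannanhua and 6.08 to 18.0 in Yorkshire. Its log2 difference of -0.27 was nearer 0 than that of its neighbour. COL5A3, the third chain, stood at 9.18, 11.3 and 9.91 FPKM in Wannanhua and 3.99, 9.92 and 9.01 in Yorkshire, a log2 difference of 0.44 (95% interval -0.27 to 1.16; adjusted p in limma = 0.434). Across the 9 fibrillar collagens, 5 were tested, 4 with negative values, beside 37.4% of all tested genes. Their median log2 difference was -0.66, beside 0.12 over all tested genes. That median ran from -1.10 without Yorkshire 1 to -0.33 without Yorkshire 2. The 4 untested fibrillar genes are the cartilage-type chains COL2A1, COL11A1 and COL11A2, and COL27A1. COL11A1 stood at 0.178 to 0.474 FPKM in Wannanhua and at 0.326, 3.34 and 1.26 in Yorkshire. COL2A1, the main cartilage collagen, stood at 0.525 FPKM in Yorkshire 2 and at no more than 0.0293 in the other libraries.

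**Figure D2:**
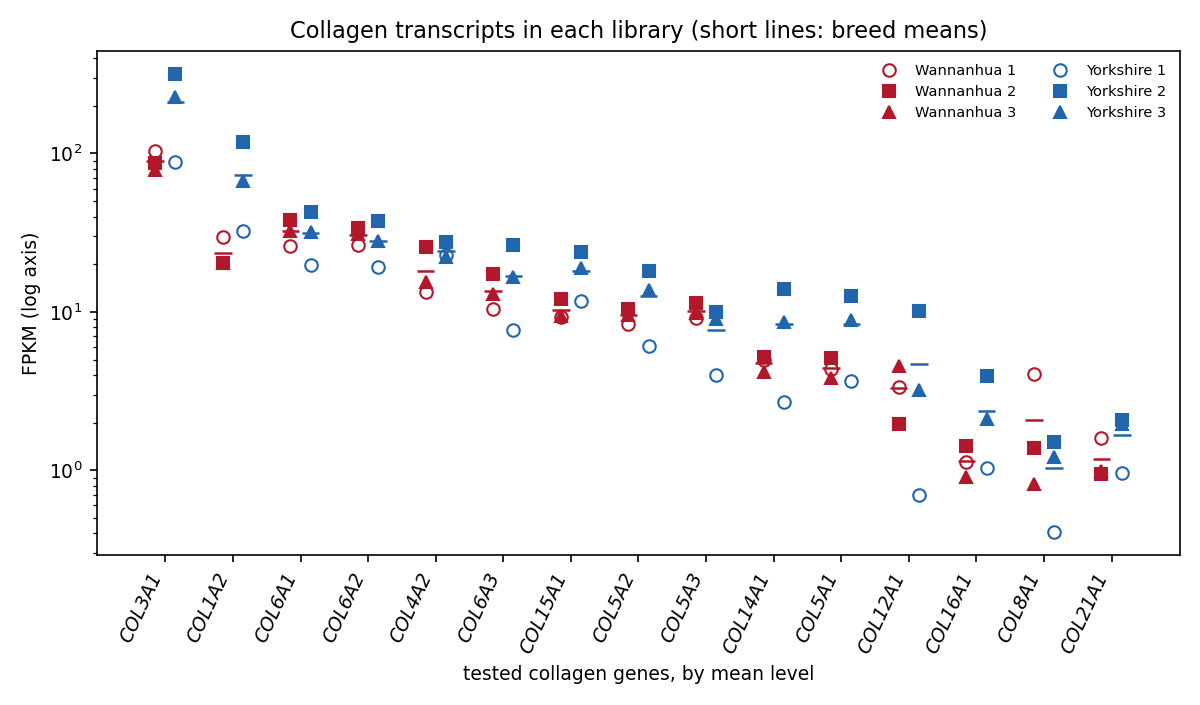
FPKM of the 15 tested collagen genes in each library (log axis), ordered by mean level, with short lines at the breed means; circles, squares and triangles are replicates 1, 2 and 3. The filled blue squares of Yorkshire 2 top 13 of the 15 genes, and the open blue circles of Yorkshire 1 are lowest in 9.

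Type VI collagen, whose beaded filaments link the basement membrane to the fibres, had no difference between breeds larger than the spread between libraries. COL6A1 (ENSSSCG00000022506) stood at 26.1, 38.1 and 32.5 FPKM in Wannanhua and 19.8, 42.6 and 31.9 in Yorkshire, and COL6A2 at 26.4 to 33.8 and 19.1 to 37.3 FPKM. The log2 differences were 0.08 (95% interval -0.60 to 0.77) and 0.14 (95% interval -0.45 to 0.74), each with an interval that spans 0. COL6A3 stood at 10.4 to 17.4 FPKM in Wannanhua and 7.71 to 26.4 in Yorkshire, with a log2 difference of -0.17. The signs of these 3 values turned when a single Yorkshire library was left out (COL6A1 -0.20 and COL6A2 -0.10 without Yorkshire 1, COL6A3 0.21 without Yorkshire 2). COL6A5 stayed at or under 0.106 FPKM in all 6 libraries.

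Among the network-forming collagens, COL4A2 (a basement membrane chain found in nearly all tissues) stood at 13.4, 25.7 and 15.4 FPKM in Wannanhua and 22.8, 27.7 and 22.2 in Yorkshire, overlapping through Wannanhua 2 (log2 difference -0.44; adjusted p in limma = 0.354). The tissue-restricted type IV chains COL4A3, COL4A4, COL4A5 and COL4A6 had breed means under 0.33 FPKM, and the highest library value among them was 0.594. COL8A1, a short-chain collagen of vessel walls, stood at 4.03 FPKM in Wannanhua 1, 1.38 in Wannanhua 2 and 0.407 in Yorkshire 1. That high value came from a scaled count of 25.5, beside 56.0 in Wannanhua 2, so the FPKM of COL8A1 is uncertain, and its log2 difference of 0.49 is not read as a difference between breeds. FPKM per scaled count varied by 6.33-fold across libraries for this gene, and by over 1.5-fold for 3 of the 50 tested genes (COL8A1, ITGAV and ITGA10), beside 0.772% of all tested genes.

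COL15A1 (ENSSSCG00000005380), a multiplexin collagen of the muscle and capillary basement membrane, stood at 9.27, 12.1 and 9.46 FPKM in Wannanhua and 11.8, 23.9 and 18.8 in Yorkshire. The breeds overlapped by the close values of Wannanhua 2 and Yorkshire 1, and the log2 difference was -0.72 ± 0.27 (SE; adjusted p in limma = 0.176). The 4 tested FACIT collagens, which decorate fibre surfaces, all had negative log2 differences, from -0.05 for COL12A1 to -0.56 for COL16A1. Of all tested genes 37.4% had negative values. COL14A1 stood at 4.96, 5.18 and 4.15 FPKM in Wannanhua and 2.68, 14.0 and 8.59 in Yorkshire, so that both extremes were Yorkshire libraries. COL12A1, a collagen of tendon and fascia, ran from 0.703 to 10.2 FPKM within Yorkshire alone. COL22A1, known from the junction of muscle and tendon, was listed at 0 in Wannanhua 3, Yorkshire 1 and Yorkshire 3, and reached 0.614 FPKM in Wannanhua 1.

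COL28A1 (ENSSSCG00000015342), a beaded-filament collagen described around peripheral nerve, differed most clearly among the untested collagens. It stood at 0.760, 0.777 and 0.521 FPKM in Wannanhua and at 0.0165, 0.0875 and 0.0985 in Yorkshire. The Wannanhua libraries all lay above the Yorkshire libraries, by 10.2-fold between means, with scaled counts of 34.3 to 52.0 against 1.1 to 6.4. Being under 1 FPKM throughout it was not tested, and in the fit with no filter on low values its limma adjusted p was 0.0541. The 3 transmembrane collagens, COL13A1, COL17A1 and COL23A1, stayed at or under 0.564 FPKM.

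Ratios within a library do not depend on that library's scaling. The ratio of COL3A1 to COL6A1 was 3.94, 2.27 and 2.43 in Wannanhua and 4.47, 7.51 and 7.07 in Yorkshire. Every Yorkshire library lay above every Wannanhua library, Yorkshire 1 included. The ratio of COL3A1 to COL4A2 overlapped, at 7.68, 3.37 and 5.12 in Wannanhua and 3.88, 11.5 and 10.2 in Yorkshire. The ratio of COL5A3 to COL5A1 was 2.10, 2.20 and 2.59 in Wannanhua and 1.09, 0.786 and 1.01 in Yorkshire, a gap wider than the spread within either breed. COL1A2 to COL6A1 and COL5A1 to COL5A2 were also higher in every Yorkshire library, and COL3A1 to COL1A2 in every Wannanhua library (3.49 to 4.25 against 2.69 to 3.35). The ratio of COL6A1 to COL6A2 varied little, from 0.989 to 1.14 over the 6 libraries. These pairs were picked with the values known, and 14 ratios were computed. Several of the pairs share a chain, so they are not separate results. With 3 libraries against 3, the exact permutation test (two-sided) cannot go below 0.10, which is what the 5 ratios without overlap gave, or 0.28 adjusted over the 14.

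**Figure D3:**
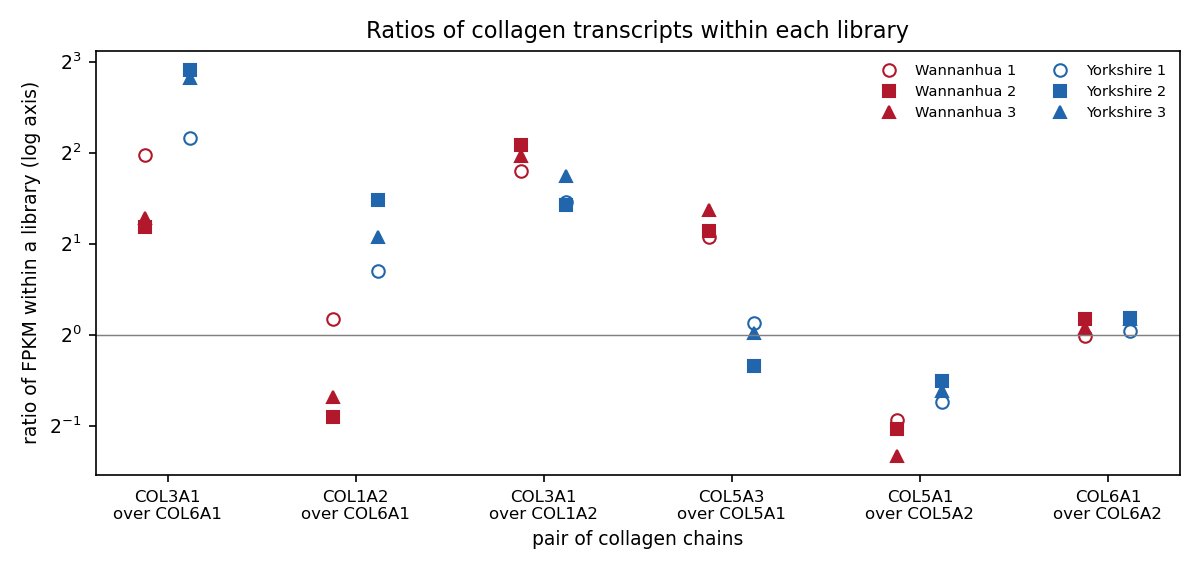
Ratio of FPKM between pairs of collagen chains within each library (log axis); red marks are Wannanhua, blue marks Yorkshire, and the grey line is a ratio of 1. The breeds separate for the first 5 pairs, most widely for COL5A3 over COL5A1, and mix for COL6A1 over COL6A2. Of the 14 ratios computed, those not shown overlapped, COL3A1 over COL4A2 among them.

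Laminins, the cross-shaped trimers of the basement membrane, were led by LAMB2, a beta chain, and LAMC1, a gamma chain. LAMB2 stood at 23.0, 28.1 and 32.5 FPKM in Wannanhua and 23.6, 27.2 and 36.8 in Yorkshire, with a log2 difference of -0.06 (95% interval -0.57 to 0.46). LAMC1 stood at 21.3, 33.6 and 31.5 FPKM in Wannanhua and 11.2, 31.5 and 31.3 in Yorkshire, where Yorkshire 1 alone was low; its log2 difference was 0.33, and -0.15 without Yorkshire 1. LAMB1 stood at 7.20 to 14.1 and 9.11 to 14.9 FPKM. LAMA4, the alpha chain of vessel laminins, stood at 5.04, 6.46 and 5.24 FPKM in Wannanhua and 6.52, 11.1 and 7.68 in Yorkshire. The breeds touched without overlapping (log2 difference -0.50 ± 0.22 SE; adjusted p in limma = 0.241). None of the 4 tested laminin chains passed, and 0 had an unadjusted limma p under 0.05, beside 22.1% of all tested genes. The epithelial laminin chains LAMA3 and LAMB3 were low. LAMB3 stood at 0.717, 0.116 and 0.151 FPKM in Wannanhua and 1.51, 0.981 and 0.843 in Yorkshire, all higher in Yorkshire, and LAMC3 stayed at or under 0.0529 FPKM.

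Of the integrin chains and the proteins named after them, melusin alone passed, at a lower level in Wannanhua. ITGB1 (ENSSSCG00000011101), the common partner of most matrix-binding alpha chains, was the most abundant integrin chain at 61.8, 70.4 and 66.8 FPKM in Wannanhua and 48.6, 70.8 and 60.6 in Yorkshire. Its log2 difference was 0.16, with a 95% interval of -0.29 to 0.60. ITGB1BP2 (ENSSSCG00000022209), melusin, stood at 47.5, 45.5 and 36.2 FPKM in Wannanhua and 88.8, 108 and 99.5 in Yorkshire. Every Yorkshire library lay far above every Wannanhua library, and ITGB1BP2 was lower in Wannanhua (means 43.1 ± 6.02 and 98.8 ± 9.76 FPKM, SD, n = 3; log2 difference -1.19 ± 0.18 SE; adjusted p in limma = 0.0317). The log2 difference stayed between -1.26 and -1.07 when any library was left out. The call was lost without Wannanhua 1, Wannanhua 2, Yorkshire 2 or Yorkshire 3 (adjusted p in limma = 0.0999, 0.124, 0.0927 and 0.135) and with no filter on low values (0.0546). The other genes with an integrin's name were ITGB1BP1, a cytoplasmic binding protein of the same chain, at 10.6 to 15.3 and 13.3 to 17.8 FPKM, and ITGBL1, a secreted protein, at 4.68 to 7.31 and 4.60 to 9.56.

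ITGB6 and ITGB8 pair with the alpha V chain and are known for releasing active TGF-beta from its latent complex. ITGB6 (ENSSSCG00000015886) stood at 11.5, 19.8 and 9.40 FPKM in Wannanhua and 4.32, 5.08 and 5.61 in Yorkshire. The breeds did not overlap, and the means, 13.6 ± 5.51 and 5.00 ± 0.647 FPKM, lay 2.71-fold apart (log2 difference 1.22 ± 0.27 SE; adjusted p in limma = 0.0599). ITGB8 (ENSSSCG00000015375) stood at 3.63, 6.42 and 5.72 FPKM in Wannanhua and 0.567, 2.37 and 1.53 in Yorkshire. Again the lowest Wannanhua library lay above the highest Yorkshire library, with means 3.53-fold apart (log2 difference 1.37 ± 0.32 SE; adjusted p in limma = 0.0671). Neither passed. ITGB6 passed without Wannanhua 3 (0.0391), with a filter at 5 FPKM (0.0492) and on scaled counts (0.0497), and ITGB8 after quantile normalization (0.0439). ITGAV (ENSSSCG00000016027), their alpha partner, stood at 14.4, 27.2 and 17.4 FPKM in Wannanhua and 12.0, 7.55 and 14.9 in Yorkshire, with overlap. By scaled count ITGAV stood at 1195.6, 1268.0 and 904.6 against 565.8, 721.1 and 696.6, without overlap, and its log2 difference was 0.76 by that measure and 0.72 by FPKM (adjusted p in limma = 0.0849 and 0.224).

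ITGB4, the beta chain of hemidesmosomes, stood at 1.30, 1.62 and 1.57 FPKM in Wannanhua and 0.450, 0.722 and 0.919 in Yorkshire (log2 difference 0.56; adjusted p in limma = 0.129). Its log2 difference was 1.19 on scaled counts, since the added 1 weighs on a gene near 1 FPKM. ITGB2, the leukocyte beta chain, stood at 0.849 to 1.09 FPKM in Wannanhua and 0.857 to 1.55 in Yorkshire, and ITGB7, another leukocyte chain, at 0.257 to 0.666 and 0.781 to 1.01 without being tested. ITGAE (ENSSSCG00000017869), the alpha chain that pairs with ITGB7 on lymphocytes in epithelia, stood at 3.06, 5.27 and 4.79 FPKM in Wannanhua and 12.6, 7.82 and 7.20 in Yorkshire. All Yorkshire libraries were higher, by 2.10-fold between means (log2 difference -0.91 ± 0.26 SE; adjusted p in limma = 0.106). The ITGAE values rest on scaled counts of 24.6, 38.0 and 33.3 in Wannanhua and 83.0, 56.7 and 51.2 in Yorkshire. The 8 macrophage and leukocyte markers in the named rows summed to 9.62 to 11.6 FPKM in Wannanhua and 8.27 to 17.5 in Yorkshire. PTPRC, CD68 and CD2 were higher in every Yorkshire library (means 1.22 and 2.07, 1.55 and 1.94, 0.398 and 0.769 FPKM). CSF1R, CD14, MRC1, LYZ and CD79B overlapped, all but LYZ with higher means in Wannanhua. None of the 8 was at 0, and their part in the level of ITGAE was not tested.

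The alpha chains that bind collagen and laminin overlapped between breeds. ITGA1, a collagen receptor, stood at 9.30 to 16.6 FPKM in Wannanhua and 5.94 to 13.4 in Yorkshire, and ITGA6, a laminin receptor, at 5.11 to 7.43 and 4.99 to 7.22. The fibronectin receptor chain ITGA5 stood at 1.88 to 4.68 and 2.44 to 4.32 FPKM, with a log2 difference of -0.05. ITGA9 stood at 4.22 FPKM in Wannanhua 3 and at 0.302 to 1.46 in the other libraries, on scaled counts of 45.1 and of 3.3 to 15.5. Over the 9 tested alpha chains the median log2 difference was 0.35, beside 0.12 over all tested genes, and it was 0.05 without Wannanhua 2, 0.06 without Yorkshire 1 and 0.15 with no filter on low values. Of the 14 tested integrin chains 10 had positive values, beside 7387 of all 11791 tested genes. In limma 0 of the 14 passed, and 5 (35.7%) had an unadjusted p under 0.05, beside 22.1% of all tested genes. The 5 include ITGB4, which reached 1 FPKM in Wannanhua alone. The value of ITGA6, 0.05, turned to -0.11 after quantile normalization.

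**Figure D4:**
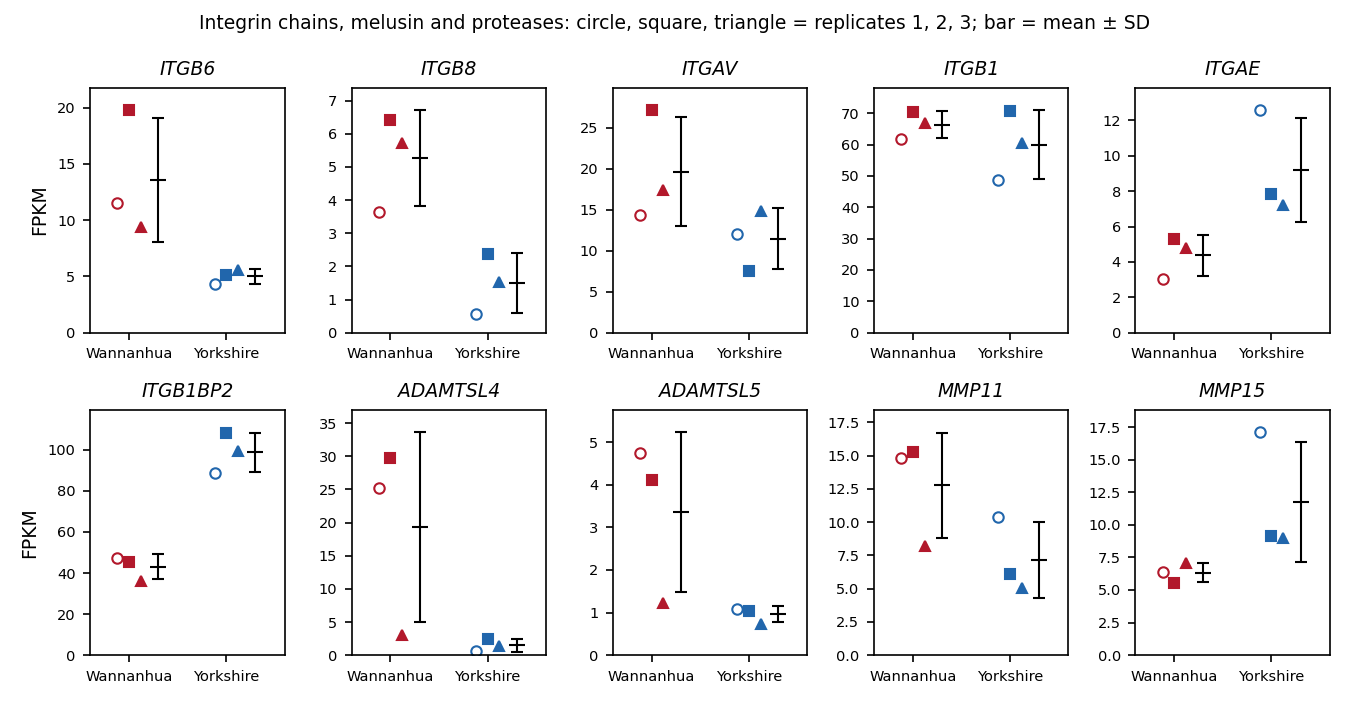
FPKM of 10 genes in each library (circles, squares and triangles are replicates 1, 2 and 3, and the black bar is the mean ± SD of 3 libraries; every axis starts at 0). ITGB6, ITGB8, ADAMTSL4 and ADAMTSL5 are higher in every Wannanhua library, ITGAE, ITGB1BP2 and MMP15 in every Yorkshire library, and ITGAV, ITGB1 and MMP11 overlap.

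Of the MMPs, 5 of 15 were tested and 0 passed in limma, with 2 at an unadjusted p under 0.05 (40.0%, beside 22.1% of all tested genes). MMP2, the gelatinase that fibroblasts release, was the most abundant at 22.3, 24.6 and 14.3 FPKM in Wannanhua and 18.6, 31.7 and 23.9 in Yorkshire (log2 difference -0.27, 95% interval -0.90 to 0.36). MMP14, the membrane protease that activates it, stood at 3.05 to 3.24 and 2.49 to 4.72 FPKM. MMP11, a secreted protease also called stromelysin-3, stood at 14.8, 15.3 and 8.23 FPKM in Wannanhua and 10.4, 6.08 and 5.04 in Yorkshire, where Yorkshire 1 lay above Wannanhua 3 (log2 difference 0.76; adjusted p in limma = 0.216). MMP15, a membrane-anchored MMP, stood at 6.37, 5.57 and 7.04 FPKM in Wannanhua and 17.1, 9.15 and 8.99 in Yorkshire. MMP15 was higher in all Yorkshire libraries, with Yorkshire 1 far above the others (log2 difference -0.75; adjusted p in limma = 0.158), and its log2 difference was -0.46 without Yorkshire 1.

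TIMP1, the inhibitor, stood at 4.68, 5.18 and 4.97 FPKM in Wannanhua and 4.59, 7.60 and 5.38 in Yorkshire, with a log2 difference of -0.18 (95% interval -0.66 to 0.29). The ratio of MMP2 to TIMP1 was 4.13 ± 1.08 in Wannanhua and 4.23 ± 0.202 in Yorkshire (SD, n = 3), a difference smaller than the spread within Wannanhua. MMP9, the gelatinase of neutrophils and macrophages, stayed at or under 0.200 FPKM, and MMP13, a collagenase, was listed at 0 in every Wannanhua library and in Yorkshire 1. MMP27 stood at 1.59, 0.412 and 0.356 FPKM in Wannanhua and at 0, 0.0357 and 0.138 in Yorkshire. Of the 48 untested genes 8 did not overlap, and of all tested genes 29.9%. The share over the untested genes of the whole table was not computed. The 8 were COL28A1, LAMA3, LAMB3, ITGB7, ADAMTS7, ADAMTS19, MMP9 and MMP27, singled out once their values were known. For MMP27 the scaled counts were 40.3, 11.0 and 9.7 against 0.0, 1.0 and 3.7, and its limma adjusted p was 0.213 with no filter on low values.

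ADAMTS-like proteins share the ancillary domains of the ADAMTS proteases but lack the protease, and those known to bind fibrillin sit on elastic microfibrils. ADAMTSL4 (ENSSSCG00000006651) stood at 25.2, 29.7 and 2.97 FPKM in Wannanhua and 0.588, 2.47 and 1.42 in Yorkshire. Wannanhua 1 and 2 lay about an order of magnitude above Wannanhua 3, which was itself only just above Yorkshire 2. The means lay 12.9-fold apart, 19.3 ± 14.3 against 1.49 ± 0.946 FPKM (SD, n = 3; log2 difference 2.63 ± 0.75 SE; adjusted p in limma = 0.103). ADAMTSL5 showed the same split within Wannanhua, at 4.74, 4.10 and 1.23 FPKM, beside 1.09, 1.04 and 0.742 in Yorkshire (log2 difference 1.05 ± 0.35 SE; adjusted p in limma = 0.145). Without Wannanhua 3, the Wannanhua library nearest to Yorkshire, both passed (adjusted p in limma = 0.00549 for ADAMTSL4 and 0.0173 for ADAMTSL5), with log2 differences of 3.58 and 1.47. With any other library left out neither passed (adjusted p in limma from 0.148 to 0.278 for ADAMTSL4 and from 0.198 to 0.355 for ADAMTSL5). ADAMTSL2 and ADAMTSL3 were too low to test and overlapped.

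The ADAMTS proteases themselves were low. ADAMTS1, a versican-cutting protease, was the highest of the 16, at 2.70, 5.59 and 7.38 FPKM in Wannanhua and 1.49, 4.90 and 3.10 in Yorkshire (log2 difference 0.59; adjusted p in limma = 0.425). ADAMTS2, which trims the amino-terminal end of procollagen, stood at 0.846 to 1.30 and 0.896 to 2.62 FPKM. ADAMTS20 ran from 0.319 to 2.72 FPKM with no order by breed. None of the 6 tested proteases had an unadjusted limma p under 0.05, beside 22.1% of all tested genes, and 10 were not tested. ADAMTS4 and ADAMTS5, the aggrecanases, stood at up to 1.41 and 0.963 FPKM, both in Wannanhua 2, and ADAMTS8 reached 1.95 FPKM in Yorkshire 2 against 0.102 to 0.449 elsewhere. ADAMTS19 (ENSSSCG00000014259) stood at 0.544, 1.46 and 0.701 FPKM in Wannanhua and was listed at 0 in all 3 Yorkshire libraries. That rests on scaled counts of 4.9, 13.0 and 6.4, and the limma adjusted p was 0.0723 with no filter on low values.

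The order of the libraries differed between families. Yorkshire 2 was the highest library for 13 of the 15 tested collagens (86.7%), beside 14.8% of all tested genes, and Yorkshire 1 was the lowest for 9 of the 15 (60.0%), beside 36.3%. Among the 14 tested integrins Yorkshire 1 was the lowest for 10 (71.4%), while Wannanhua 2 was the highest for 7 (50.0%), beside 27.0% of all tested genes. Summed over the 30 collagens, the level was 259, 274 and 238 FPKM in Wannanhua and 223, 677 and 464 in Yorkshire, and over the 20 ADAMTS genes 43.6, 54.4 and 21.4 against 9.69, 25.6 and 17.5. ADAMTSL4, which is not a protease, made up 25.2, 29.7 and 2.97 FPKM of these ADAMTS sums in Wannanhua. In Yorkshire it made up 0.588, 2.47 and 1.42 FPKM.

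**Figure D5:**
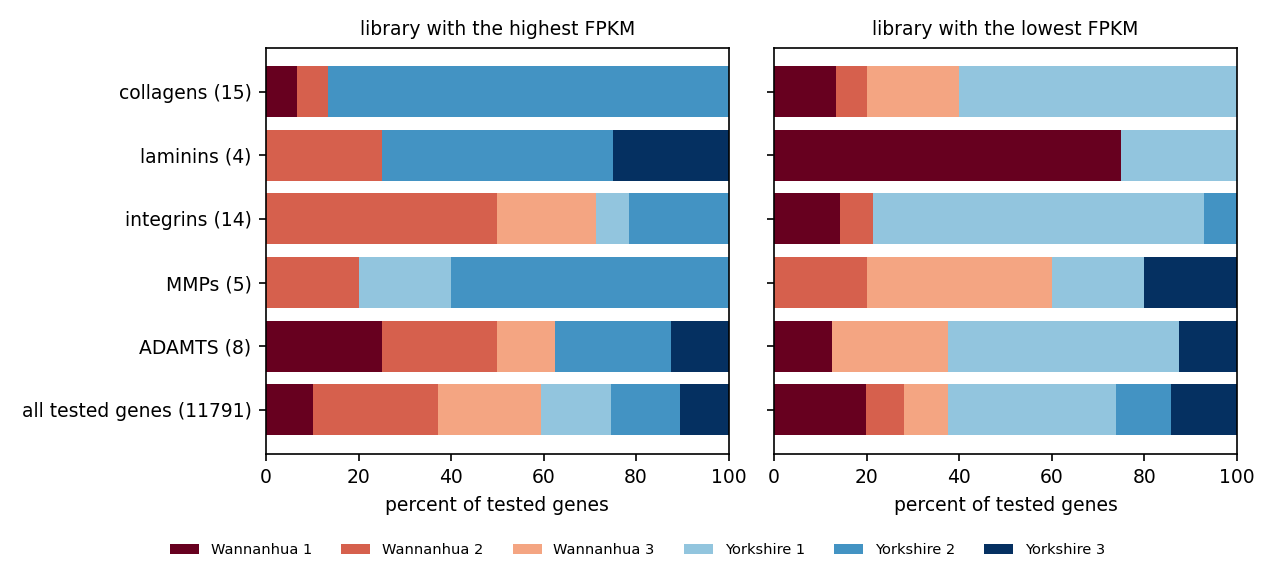
Share of the tested genes of each family (number in brackets) for which each library had the highest FPKM (left) or the lowest FPKM (right), with all tested genes at the bottom. Yorkshire 2 fills 86.7% of the collagen bar on the left, against 14.8% for all genes, and Yorkshire 1 fills 60.0% of the collagen bar and 71.4% of the integrin bar on the right.

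Some markers of matrix-making cells were also highest in Yorkshire 2. The 5 fibroblast markers in the named rows summed to 254, 202 and 203 FPKM in Wannanhua and 205, 352 and 248 in Yorkshire, mostly DCN (decorin), and none was at 0. DCN, LUM and PDGFRA were highest in Yorkshire 2, PI16 in Wannanhua 2 (25.3 FPKM, beside 21.5 in Yorkshire 2) and DPP4 in Wannanhua 1 (3.15, beside 3.03), and the median log2 difference of the 5 was -0.05. The 5 tendon markers summed to 37.7, 22.0 and 23.4 FPKM in Wannanhua and 12.3, 89.6 and 16.9 in Yorkshire, with MKX at 0 in some library. TNMD, tenomodulin, a defining tendon gene, stood at 10.3 FPKM in Yorkshire 2 and at 0.173 to 1.92 in the other libraries, and FMOD, fibromodulin, at 34.2 against 2.75 to 9.42. The part of these cells in the collagen levels was not tested. The smooth muscle and pericyte markers summed to 63.2 to 142 FPKM in Wannanhua and 75.7 to 105 in Yorkshire, and the endothelial markers to 49.7 to 74.4 and 52.2 to 64.4.

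Genes that work with these families were counted from lists drawn up by function. Of 15 tested genes that make and crosslink collagen, 0 passed in limma and 1 had an unadjusted p under 0.05, with a median log2 difference of 0.06. That 1 was PCOLCE, which speeds the trimming of procollagen, at a mean of 15.2 FPKM in Wannanhua and 26.7 in Yorkshire (adjusted p in limma = 0.115). Of 12 other basement membrane genes, 10 proteoglycans and 20 genes of fibronectin, elastic fibres and matricellular proteins, 0 passed in limma, with 0, 2 and 1 at an unadjusted p under 0.05. Their medians were -0.10, -0.05 and 0.13. Over all tested genes 3.05% passed in limma, 22.1% had an unadjusted p under 0.05, and the median was 0.12. SPARC, a collagen-binding protein of basement membranes, stood at 132, 208 and 87.3 FPKM in Wannanhua and 116, 285 and 230 in Yorkshire.

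Of 17 tested genes of integrin adhesion sites and costameres, 0 passed and 5 had an unadjusted limma p under 0.05, 4 of them lower in Wannanhua, with a median log2 difference of -0.21. Over all 11791 tested genes 2605 (22.1%) had such a p, 888 of them lower in Wannanhua, and the median was 0.12. TLN2, the talin isoform of striated muscle that joins integrin tails to actin, averaged 19.7 FPKM in Wannanhua and 32.7 in Yorkshire without overlap (adjusted p in limma = 0.133). ZYX, zyxin, of stretched adhesion sites, averaged 22.0 and 14.1 FPKM (adjusted p in limma = 0.124). Among 9 other matrix receptors and 13 partners of matrix proteases 0 passed in limma, with 1 and 0 at an unadjusted p under 0.05, and medians of 0.05 and 0.16. The 1 was BCAM, a laminin receptor, at means of 38.6 and 72.7 FPKM with overlap (adjusted p in limma = 0.219).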

How the data were processed

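RNA of 3 Wannanhua and 3 Yorkshire muscle libraries was sequenced with paired ends after poly-A selection and random priming, per the labels' protocols; the TruSeq RNA kit named there does not mark strand, so reads of overlapping antisense genes cannot be told apart. CASAVA 1.7, TopHat2 2.0.6 and the build Sscrofa10.2 are named in the submitters' processing notes, with no role. No counter or annotation is named there. The deposited FPKM values are scaled for transcript length and mapped depth, a reading of the unit in the file headers. The deposited count columns were not whole numbers and were used as a signal scaled per library. Symbols matched 10384 of 17627 identifiers. No sequence was used, and the neighbours among genes come from RefSeq's order on Sscrofa11.1, another assembly.

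Differences were fitted with limma 3.58.1 in R 4.3.3 on log2(FPKM + 1), breed as the only term, with trend and robust moderation. Genes needed 1 FPKM in 3 libraries, and 7 genes reaching a scaled count of 10000 in a library but listed at 0 in another (none of them reported here) were left out, leaving 11791. P-values were adjusted by Benjamini-Hochberg over these genes. The fit was tested on simulated data. Scaled counts summed to 16373268 to 19251335 per library, and being scaled they do not give the depth in reads. The members and lists were chosen with earlier results of these data known. Named were all genes past the threshold, the 3 most abundant per family, the 8 with the smallest p and a set of known muscle matrix genes. Alternatives were quantile normalization, other pseudocounts and filters, no trend and robust settings, the 7 genes kept, the replicate number as a block, each library left out and, added after seeing the data, scaled counts. Some items are not reported here.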

Additional observations from a re-analysis of the deposited data

How the results depend on the processing

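The count of 1 gene past the threshold among the 98 became 2 after quantile normalization (ITGB8 and ITGB1BP2), 2 with a filter at 5 FPKM, 2 on scaled counts (both ITGB6 and ITGB1BP2) and 0 with no filter on low values (17 at an unadjusted p under 0.05), and ran from 0 to 4 when each library was left out. Over all genes 360 became 69 with no filter, where 17620 genes were tested, and 11 to 504 when each library was left out, where fewer libraries were fitted. Higher genes made up 57.8% of the 360 calls and 40.8% of 338 after quantile normalization. Same-numbered libraries correlated at 0.10, -0.01 and 0.11 in their deviations from the breed means, and not every library correlated best with its own number, so the numbers were not taken to pair them. With the replicate block 205 genes passed, and 1 of the 98, ITGB8 (adjusted p = 0.0357), while ITGB1BP2 stood at 0.0555.

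Values near 0 changed sign. After quantile normalization ADAMTS20 lay at -0.15 and ITGA6 at -0.11, and ITGA6 at -0.01 on scaled counts. ADAMTS20, which passed the filter in only 3 of the 6 fits with a library left out, ran from -0.35 without Yorkshire 1 to 0.24 without Wannanhua 3. With each library left out, COL6A1 from -0.20 (and -0.04) to 0.33, COL6A2 from -0.10 to 0.36, COL6A3 from -0.62 to 0.21, ITGA5 from -0.26 to 0.23 (and 0.09), ITGA6 from -0.09 (and -0.04 and -0.01) to 0.19, LAMB1 from -0.27 to 0.17 (and 0.11), LAMB2 from -0.19 to 0.12 (and 0.07) and LAMC1 from -0.15 to 0.56, while COL5A2 reached 0.03 and MMP14 0.08. The cause was not tested. The collagen median of -0.28 ran from -0.68 without Yorkshire 1 to -0.01 without Yorkshire 2. The planned count test was not run, because a search from the smallest values found no whole-read step in 4 of 6 count columns. Genes under 1 FPKM rest on few fragments.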
